A study of Mus musculus with 16 samples.

Results

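The genes described here are 7 mouse genes of biotin uptake, attachment and recycling and of 2 biotin-dependent carboxylases, propionyl-CoA and methylcrotonyl-CoA carboxylase: Btd, Hlcs, Pcca, Pccb, Mccc1, Mccc2 and Slc5a6. They were selected by symbol from the 35502 genes of the deposited count table, and all 7 were among the 13379 genes with enough counts to be tested. Liver RNA was sequenced from 16 individual mice in 4 groups of 4. Mature and immature mice each comprised floxed controls without Cre (Con) and Cre-carrying mice with a liver-specific knockout of oestrogen receptor alpha (LERKO). Libraries are numbered in the order of listing. The sources used here do not give the promoter that drives Cre, the strain, age or sex, or whether the stage refers to the time of knockout or of tissue collection.

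The set was proposed because of Btd, whose values in mature LERKO mice were therefore the basis of the choice. Btd had the fourth smallest p of all tested genes in mature LERKO against control (rank 4 of 13379, adjusted p = 0.481 by edgeR's quasi-likelihood test), so it did not pass the threshold of 0.05. The gene just after it in that order was Fam84b, with an unadjusted p of 0.00036 against 0.000327 for Btd. The values of Btd are given below as a description. Its stage differences share the mature libraries and are descriptions too. Tested were all members in immature LERKO against control, and the other 6 between stages.

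Biotin is a vitamin that serves as a covalently bound carrier of carboxyl groups. Cells take it up through the sodium-dependent multivitamin transporter, encoded by Slc5a6, and holocarboxylase synthetase, encoded by Hlcs, attaches it to the carboxylases. When these enzymes are degraded, biotinidase, encoded by Btd and secreted into the blood largely by the liver, frees biotin from the remaining fragments for reuse. Pcca and Pccb encode the alpha and beta subunits of propionyl-CoA carboxylase, which acts in the breakdown of odd-chain fatty acids, isoleucine, valine, methionine and threonine. Mccc1 and Mccc2 encode the alpha and beta subunits of methylcrotonyl-CoA carboxylase in leucine breakdown. In both enzymes the alpha subunit carries the biotin.

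Levels are CPM, that is counts relative to the library's total as adjusted by TMM, a correction for library composition. The libraries held 18123976 to 23213907 counts. Esr1, the deleted gene, stood at 82.2 ± 19.1 CPM in mature controls and 16.3 ± 2.19 CPM in mature LERKO, and at 73.6 ± 15.8 and 13.0 ± 2.19 CPM in immature controls and LERKO (SD, n = 4 each), with no overlap between genotypes. The 12 hepatocyte markers were detected in every group and summed to between 136500 and 191700 CPM. Several libraries stood apart. Skeletal muscle markers summed to 967 and 447 CPM in mature controls 1 and 2 and to 188 CPM in immature LERKO 4, and acute phase genes summed to 145000 CPM in mature LERKO 4 against 17400 to 24100 CPM in the other libraries. In bulk liver, fewer cells of a type and less RNA per cell cannot be told apart.

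Btd lies on the forward strand of chromosome 14 (GRCm38, chr14:31641028-31668579), and its start adjoins that of Hacl1 on the reverse strand (chr14:31598730-31641286). Hacl1 encodes a peroxisomal lyase of the alpha-oxidation of branched and hydroxylated fatty acids. The gene models overlap head to head over 259 bases, of which 108 are exonic in both, 4.59% of the exon bases of Btd. In RefSeq (GRCm38.p6) the start site of Hacl1 lies at 31640965 and the more upstream of those listed for Btd at 31641057. The windows from 250 bases before to 50 bases after each start therefore share 191 bases. Both windows are shown because they hold the start sites of a gene pair whose levels are compared below. Each is printed 5′ to 3′ on its own gene's strand, with the shared stretch in capitals.
Btd, chr14:31640807-31641106, forward strand: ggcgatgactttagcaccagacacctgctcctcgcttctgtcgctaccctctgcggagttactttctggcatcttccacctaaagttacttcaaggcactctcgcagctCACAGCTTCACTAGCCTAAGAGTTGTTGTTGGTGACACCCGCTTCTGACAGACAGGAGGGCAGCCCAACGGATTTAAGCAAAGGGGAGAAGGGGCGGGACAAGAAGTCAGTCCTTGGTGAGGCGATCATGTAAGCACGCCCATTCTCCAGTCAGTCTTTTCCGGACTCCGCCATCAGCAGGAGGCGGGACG
Hacl1, chr14:31640916-31641215, reverse strand: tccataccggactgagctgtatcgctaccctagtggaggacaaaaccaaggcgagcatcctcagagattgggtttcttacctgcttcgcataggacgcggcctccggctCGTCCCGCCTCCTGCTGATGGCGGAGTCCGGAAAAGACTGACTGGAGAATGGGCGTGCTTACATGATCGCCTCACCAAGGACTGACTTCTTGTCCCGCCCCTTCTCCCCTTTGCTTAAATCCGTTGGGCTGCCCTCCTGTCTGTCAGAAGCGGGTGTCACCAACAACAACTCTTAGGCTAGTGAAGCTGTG
Of 27025 genes with such a window, 11.885% had one that overlapped a window on the opposite strand. Among the 7 members these were Btd and Slc5a6, the latter with Atraid. A full oestrogen response element (GGTCA, any 3 bases, then TGACC, either strand) was not found in the window of any member and was present in 0.07% of 32851 windows. The GC box GGGCGG, sought on both strands and present in 35.7% of windows, occurred 1 time in the printed Btd window, starting 50 bases before the start site. A further RefSeq window of Btd, chr14:31640814-31641113, held it 57 bases before its own start.

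**Figure D1:**
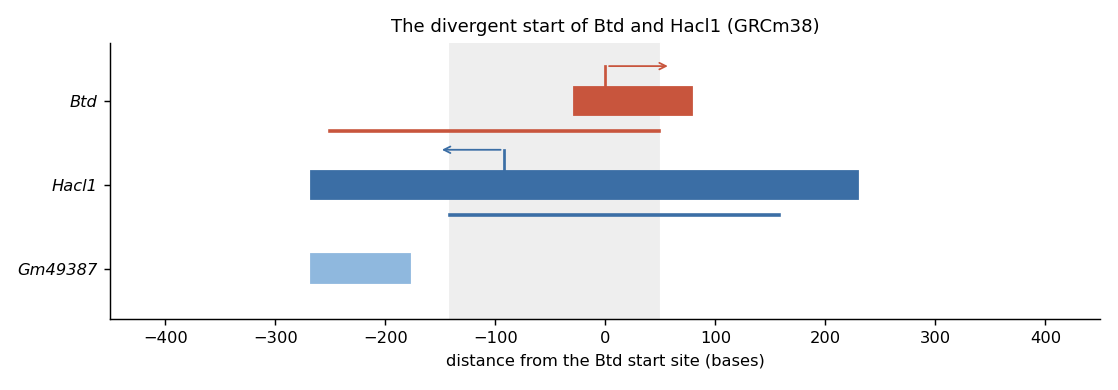
Gene models and RefSeq promoter windows at the head-to-head start of Btd and Hacl1, plotted against distance from the Btd start site in bases. Boxes are exons, lines the windows and arrows the start sites, and the grey band is the stretch of 191 bases that both windows share.

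Btd was higher in every mature LERKO library than in every mature control. The level was 58.4, 70.3, 64.8 and 66.8 CPM in the mature controls and 79.9, 85.7, 94.5 and 94.0 CPM in mature LERKO. The means were 65.1 ± 5.0 and 88.5 ± 7.04 CPM (SD, n = 4 each), a fold of 1.36 and a log2 fold change of 0.44 (SE 0.10). It was 1 of the 7 members whose mature groups did not overlap, against 3.9% of all tested genes, and 1 of 7 had an unadjusted p below 0.05, against 7.3%. By edgeR 0 of 7 passed an adjusted p of 0.05, against 0.00747%. This contrast chose Btd, and nothing is read from these counts. Markers of other cells differed between the same mature groups. In mature controls and mature LERKO, 10 stellate and matrix markers summed to 399 to 511 and 99.8 to 372 CPM, and 10 endothelial markers to 224 to 317 and 102 to 253 CPM, with all 10 of each list lower in LERKO by fold change. The 13 tested muscle markers were also all lower, their 15 genes summing to 10.4 to 967 and 2.96 to 15.1 CPM, with Myh4, Pvalb and Actn3 at 0 in mature LERKO. These muscle sums were 967 and 447 CPM in mature controls 1 and 2, and 10.4 and 71.3 CPM in mature controls 3 and 4. The 14 acute phase genes were all higher by fold change. Their sum was 145000 CPM in mature LERKO 4 and 20800 to 24100 CPM in the other mature LERKO libraries. In mature controls it was 17400 to 22200 CPM. All 10 Kupffer and myeloid markers were lower in mature LERKO by fold change (median log2 -0.26). Their sums overlapped, at 295 to 400 CPM in mature controls and 236 to 414 CPM in mature LERKO. Of 12 hepatocyte markers, 9 had log2 fold changes above 0 and 3 below (median 0.10). The part of the stellate, endothelial, Kupffer and hepatocyte markers in the Btd values was not tested. The Btd difference was 0.43 on the log2 scale without the 3 libraries rich in muscle transcripts, and 0.40 when mature LERKO 4 was also left out. Both values rest on mature controls 3 and 4 alone on the control side.

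In immature mice the Btd groups overlapped. The level was 72.9, 82.5, 74.7 and 91.1 CPM in the controls of that stage and 73.8, 76.8, 82.3 and 67.5 CPM in their LERKO counterparts. The means were 80.3 ± 8.31 and 75.1 ± 6.19 CPM (SD, n = 4 each), and the log2 fold change was -0.10 (SE 0.10, adjusted p = 1 by edgeR's quasi-likelihood test). The 95% interval of the fold ran from 0.811 to 1.079. The mature log2 fold change exceeded the immature one by 0.54, a difference that was not tested because the mature contrast chose the gene. Immature mice of both genotypes stood between the mature groups in mean level, with mature controls lowest and mature LERKO highest. Between stages the Btd values, which share those libraries, were log2 fold changes of -0.30 (SE 0.10) in controls, where the groups did not overlap, and 0.24 (SE 0.10) in LERKO, where they did.

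**Figure D2:**
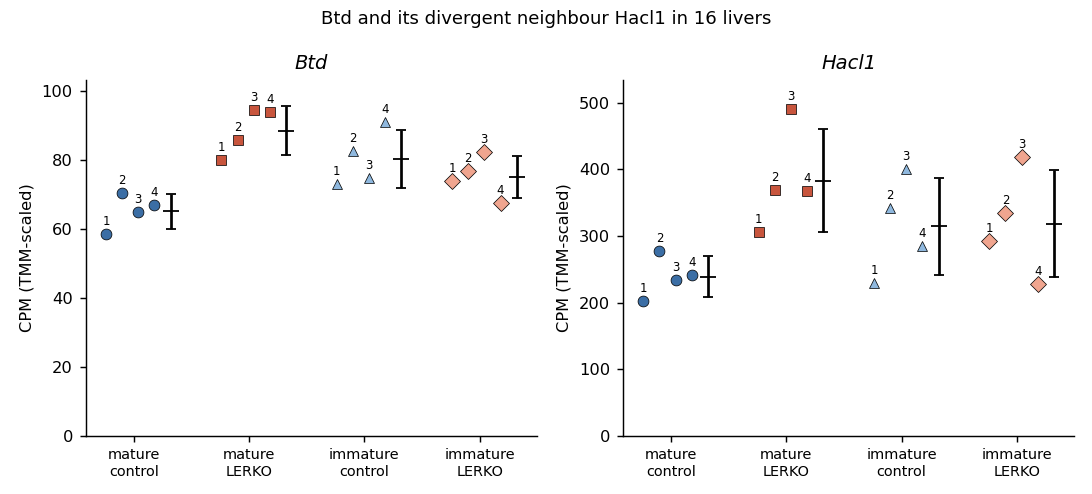
Level of Btd and Hacl1 in CPM for each library of the 4 groups, with points labelled by replicate and bars for mean ± SD. Mature controls hold 58.4 to 70.3 CPM of Btd and mature LERKO 79.9 to 94.5 CPM, while the immature groups overlap for both genes.

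Hacl1 was also higher in each mature LERKO library than in each mature control. The control libraries gave 202, 277, 234 and 242 CPM, whereas those of LERKO gave 306, 369, 490 and 367 CPM. The means were 239 ± 31.1 and 383 ± 77.1 CPM (SD, n = 4 each), which differed by 0.68 on the log2 scale (SE 0.20). In immature mice the means were 314 ± 73.3 and 318 ± 80.2 CPM (SD, n = 4 each), which differed by 0.02 on that scale (SE 0.20, adjusted p = 1 by edgeR). The sign of the immature value changed when single libraries were left out, over a range of -0.14 to 0.16.

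How genes that overlap on opposite strands compare with those on 1 strand was examined across the table. For 65 genes lying within the exons of a well-expressed gene on the opposite strand, the median level per base was 0.626% of that of the outer gene, and 2 reached 10%. For 20 such genes on the same strand the median was 111%, and all 20 reached 10%. On both strands only pairs whose outer gene had the higher total count were kept, which limits the inner levels in advance. Btd, with 4.59% of its exon bases in exons of Hacl1, is not nested in this way. The strand setting of the counting itself is not stated, and the reads of Btd and Hacl1 within their overlap were not examined. Gm49387, which shares 1540 exon bases with Hacl1 on the same strand, held 83.9 to 85.9% of the Hacl1 count in every library. How reads that fit both genes were counted is not stated, so the Hacl1 level is uncertain by an unknown amount. In mature LERKO against control the log2 fold change was 0.68 for Gm49387 and 0.68 for Hacl1. Btd has no same-strand partner in the annotation. Hacl1 counts exceeded those of Btd by unequal amounts, with a per-kilobase ratio of 1.49 to 2.55 over the 16 libraries.

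Across all 16 libraries log2 CPM of Btd and Hacl1 had a Pearson r of 0.80 and a Spearman rho of 0.80, and r on deviations from group means was 0.61. These are descriptions, since the mature libraries chose Btd. In the 8 immature libraries alone r was 0.43 and rho 0.52 (exact permutation p = 0.283 for r and 0.197 for rho, two-sided, adjusted p = 0.424 for r over 3 pairs). Without the 2 libraries farthest from the median of Btd the immature r was 0.62. The immature groups differed, with r of 0.03 in controls and 0.999 in LERKO, each over only 4 libraries. In mature controls and mature LERKO r was 0.98 and 0.80. By a fixed rule, the genes most like Btd over the 16 libraries by Pearson r, of 12118 ranked, were Ddx11 (0.86), Spop (0.86), 2810459M11Rik (0.84), Eef1g (0.83) and Psmd7 (0.83). Hacl1 ranked 12 in that order. The libraries share depth and composition, so no p is given.

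None of the other 6 members passed the test in the 3 tested comparisons. In immature LERKO against control, 0 of 7 members passed an adjusted p of 0.05 by edgeR, against 0.00747% of all tested genes, 0 of 7 had an unadjusted p below 0.05, against 2.76%, and 0 of 7 had groups without overlap, against 1.63%. DESeq2 and limma-voom likewise called 0. Of the 7, 6 had a log2 fold change above 0, with a median of 0.11 against 0.01 for all tested genes, of which 53.2% were above 0. Between stages the count was taken over the 6 members other than Btd. In mature against immature controls 0 of 6 passed by edgeR, against 0% of tested genes, 0 of 6 had an unadjusted p below 0.05, against 9.84%, and 1 of 6 (Slc5a6) had groups without overlap, against 8.86%. In mature against immature LERKO 0 of 6 passed, against 0%, 0 of 6 had an unadjusted p below 0.05, against 4.93%, and 0 of 6 had groups without overlap, against 1.52%.

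**Figure D3:**
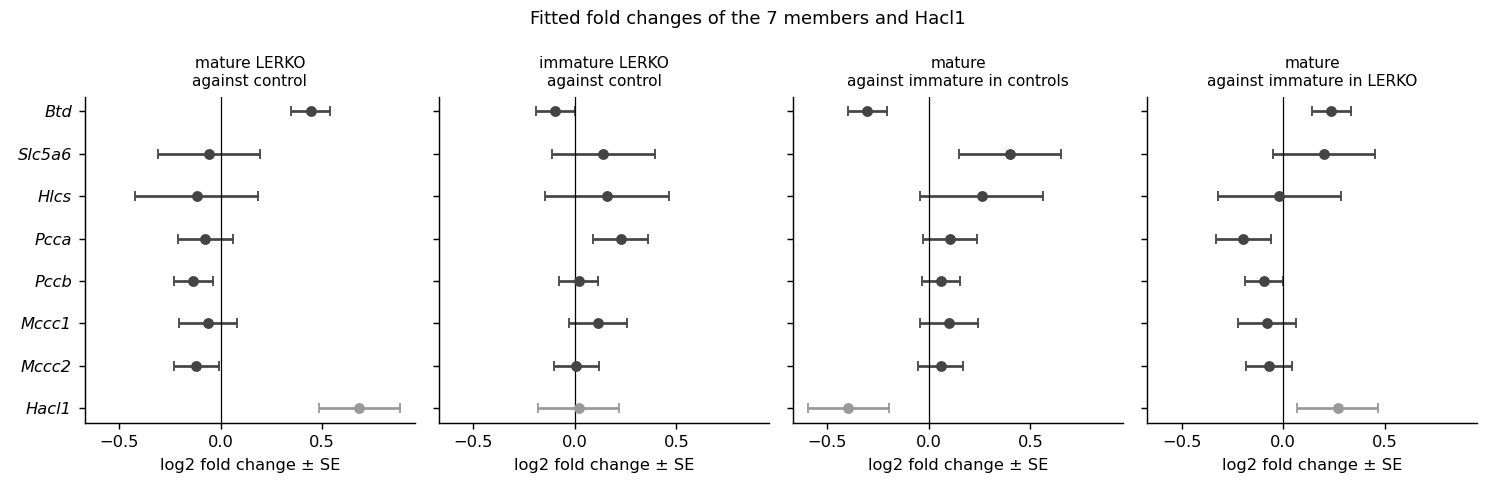
Log2 fold change ± SE of each member and of Hacl1 in the 4 comparisons. Btd at 0.44 and Hacl1 at 0.68 in mature LERKO against control are the values that belong to the choice of the set, and the other 6 members lie between -0.13 and -0.06 there.

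Slc5a6, the uptake transporter, was a low and variable transcript. It stood at 18.9, 15.5, 14.7 and 16.4 CPM in mature controls, at 14.5, 10.6, 10.8 and 13.9 CPM in immature ones. In immature LERKO the level was 12.1, 14.9, 12.7 and 15.1 CPM. Mature LERKO ran widest, at 16.6, 15.5, 6.79 and 24.3 CPM, so that the lowest and the highest library of all 16 fell in 1 group. The log2 fold change was -0.06 (SE 0.25) in mature and 0.14 (SE 0.25, adjusted p = 1) in immature LERKO against control by edgeR. Leaving out mature LERKO 3 turned the mature value to 0.20. Between stages its control groups did not overlap, and the mature mean exceeded the immature one by 0.40 on the log2 scale (SE 0.25, adjusted p = 0.667 by edgeR), which did not pass. Markers of other cells differed between the same control groups. All 10 Kupffer and myeloid markers had fold changes above 0 (median log2 0.67, summing to 295 to 400 CPM in mature and 140 to 289 CPM in immature controls), as did all 10 endothelial (median 0.68), all 10 stellate and matrix (median 0.58) and all 13 tested muscle markers. Of 12 hepatocyte markers 11 lay below 0 (median -0.22). The part of these markers in the stage differences of Slc5a6 and Btd was not tested. Without the muscle-rich libraries, which include mature controls 1 and 2, the Slc5a6 difference was 0.31. Its exons overlap those of Atraid on the opposite strand over 396 bases, 9.92% of its exon bases.

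Hlcs, the ligase that attaches biotin, varied more than any other member, with a coefficient of variation of 29.5% over the 16 libraries. Its levels were 20, 12.6, 14.2 and 17.5 CPM in mature controls, and 15.3, 12.0, 8.77 and 23.3 CPM in mature LERKO. In immature mice they were 13.6, 13.5, 16.8 and 9.82 CPM in controls and 15.8, 16.9, 6.92 and 20.3 CPM in LERKO. All groups overlapped. The log2 fold change was -0.12 (SE 0.30) in mature and 0.16 (SE 0.31, adjusted p = 1) in immature LERKO by edgeR, and both signs turned when single libraries were left out, to 0.07 without mature LERKO 3 and to -0.02 without immature LERKO 4.

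The propionyl-CoA carboxylase subunits did not pass in the 3 tested comparisons. Pcca held 66.9, 57.9, 59.7 and 62.8 CPM in mature controls and 62.1, 55.5, 58.6 and 58.6 CPM in mature LERKO. In immature controls it held 54.6, 51.3, 72.1 and 52.1 CPM, and in immature LERKO 66.6, 54.5, 60.5 and 87.4 CPM. The immature difference was 0.23 on the log2 scale (SE 0.13, adjusted p = 1 by edgeR). Without the libraries rich in muscle transcripts, which include the immature LERKO library at 87.4 CPM, and mature LERKO 4 it was 0.07. Pccb was the steadiest member, with a coefficient of variation of 7.31% against a median of 17.1% over all tested genes. Its 15 libraries other than mature LERKO 4 lay between 176 and 201 CPM, and mature LERKO 4 held 140 CPM. The mature log2 fold change was -0.13 (SE 0.10) and -0.01 without that library. The immature value was 0.02 (SE 0.10, adjusted p = 1 by edgeR).

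The methylcrotonyl-CoA carboxylase subunits did not pass in those comparisons either. Mccc1 held 52.9, 54.2, 57.9 and 53.2 CPM in mature controls and 57.0, 54.9, 55.5 and 41.3 CPM in mature LERKO. It held 45.9, 48.1, 64.9 and 44.8 CPM in immature controls, and 58.8, 48.5, 45.8 and 67.3 CPM in immature LERKO. The log2 fold change was -0.06 (SE 0.14) in mature and 0.11 (SE 0.14, adjusted p = 1) in immature LERKO by edgeR. Leaving out mature LERKO 4 turned the mature value to 0.06. Mccc2 ranged from 56.7 to 78.4 CPM over the 16 libraries, with log2 fold changes of -0.12 (SE 0.11) and 0.01 (SE 0.11, adjusted p = 1 by edgeR). All groups of both genes overlapped.

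**Figure D4:**
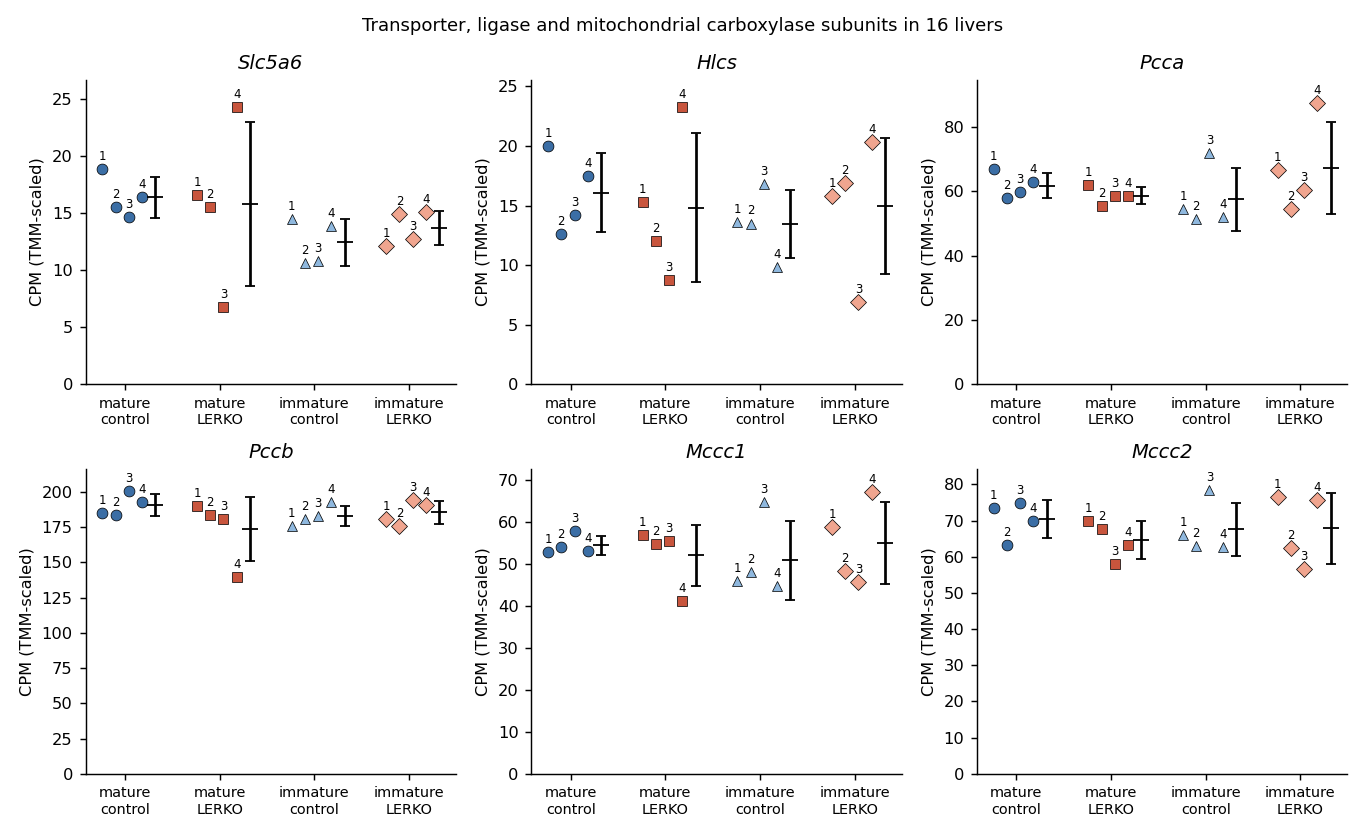
Level in CPM of Slc5a6, Hlcs, Pcca, Pccb, Mccc1 and Mccc2 in each library of the 4 groups, with points labelled by replicate and bars for mean ± SD. Mature LERKO 4 is the lowest library for Pccb at 140 CPM and for Mccc1 at 41.3 CPM, and the highest for Slc5a6 at 24.3 CPM.

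Levels of Mccc1 and Mccc2 were correlated over all libraries but not detectably within the mature ones, and no correlation passed the test for Pcca and Pccb. The difference between the pairs was not tested. The libraries share depth and composition, which the permutation p values do not take into account. They set r against 0, and no background of other gene pairs was used. The 3 pairs of the adjustment include Btd with Hacl1, which outside the immature libraries alone is given only as a description. For Mccc1 with Mccc2, r was 0.71 (permutation p = 0.00234, adjusted p = 0.00351 over 3 pairs) and rho 0.71 (permutation p = 0.0028) over 16 libraries, and r was 0.70 without the 2 libraries farthest from the median of Mccc1. On deviations from group means r was 0.73 (adjusted permutation p = 0.00519). The deviations were shuffled over all 16 libraries without regard to group, so that p may be too small. In the 8 immature libraries r was 0.90 (exact permutation p = 0.00858, adjusted p = 0.0257) and rho 0.71 (exact permutation p = 0.0576). In the 8 mature libraries r was 0.30 (exact permutation p = 0.486, adjusted p = 0.538) and rho 0.24 (exact permutation p = 0.582), and r was -0.34 without the 2 libraries farthest from the median of Mccc1. For Pcca with Pccb, r was 0.17 (permutation p = 0.466) and rho 0.32 (permutation p = 0.222), with r of 0.11 without the 2 farthest libraries and 0.10 on deviations from group means. With library size alone in place of TMM it was 0.50 (adjusted permutation p = 0.0639). Per kilobase of exon, Pccb exceeded Pcca by a ratio of 5.71 ± 0.776 and Mccc2 exceeded Mccc1 by 5.01 ± 0.475 (SD, n = 16). Ordered by mean CPM per kilobase, the members ran Pccb (66.2), Btd (32.8), Mccc2 (24.1), Pcca (11.8), Mccc1 (4.86), Slc5a6 (3.65) and Hlcs (1.66). The exon lengths are unions over annotated transcripts, which sets part of these ratios.

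**Figure D5:**
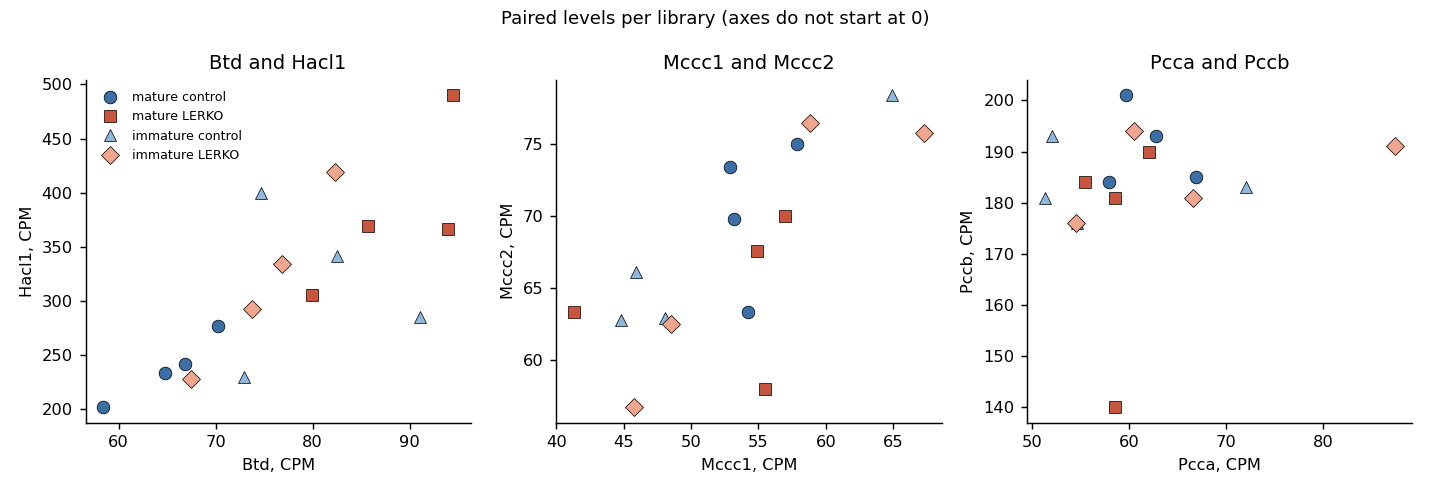
Level in CPM of each gene pair over the 16 libraries, coloured by group, for Btd with Hacl1, Mccc1 with Mccc2 and Pcca with Pccb. Computed on log2 CPM, r is 0.71 for Mccc1 with Mccc2 over all libraries and 0.30 over the mature ones. For Pcca with Pccb it is 0.17 over all libraries.

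The 3 other biotin-dependent carboxylases were measured as well. Pcx, encoding pyruvate carboxylase of gluconeogenesis, stood at 141 CPM per kilobase and differed by 0.01 on the log2 scale in immature LERKO (adjusted p = 1 by edgeR). Acaca encodes the acetyl-CoA carboxylase of fatty acid synthesis, and Acacb the mitochondrial form whose product restrains fatty acid oxidation. They had immature log2 fold changes of 1.07 (SE 0.49, adjusted p = 1) and 0.97 (SE 0.67, adjusted p = 1) by edgeR. Immature LERKO 4 held 493 CPM of Acaca and 691 CPM of Acacb, and the other 3 immature LERKO libraries held at most 143 and 141 CPM. Immature controls ran from 54.4 to 162 CPM of Acaca and from 37.9 to 306 CPM of Acacb. Immature LERKO 4 also held 188 CPM of muscle markers. Mature controls 1 and 2 held more of these, 967 and 447 CPM. Their Acaca stood at 162 and 163 CPM and their Acacb at 277 and 194 CPM. The part of the muscle transcripts in these values was not tested.

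Genes of the neighbouring pathways were counted in the same way. In immature LERKO 0.00747% of all tested genes passed and 53.2% lay above 0, so 0 passing is near the share of all genes. Of 14 tested genes of propionate and cobalamin metabolism, 0 passed in immature LERKO, 5 lay above 0 and 9 below, and the median log2 fold change was -0.01 against 0.01 for all tested genes. Of 18 tested genes of branched-chain amino acid breakdown, 0 passed, 2 lay above 0 and 16 below, with a median of -0.10. In mature LERKO the same counts of 2 and 16 were found, with a median of -0.06 against -0.01 for all tested genes, of which 48.2% were above 0. Of 10 tested genes of alpha-oxidation, the pathway of Hacl1, 0 passed in immature LERKO, with a median of -0.10.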

How the data were processed

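Liver RNA of 16 individual mice was sequenced as stranded, paired-end mRNA libraries, 4 per group, per the labels' protocols. The authors deposited 1 table of gene counts; mm10, STAR, R 4.05 and limma are named in the submitters' processing notes, and the counting program, annotation and strand setting are not stated there. In 5 columns the deposited values are estimated counts, since 10 values of 2 predicted genes were not whole; these were rounded.

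Genes were kept by filterByExpr of edgeR 4.0.16 (minimum count 10, minimum total 15), scaled by TMM (factors between 0.852 and 1.07) and compared by the quasi-likelihood test in 1 model with a coefficient per group, in R 4.3.3, with Benjamini-Hochberg adjustment over 13379 genes. SEs were obtained from each log2 fold change and its F statistic. Depth was 18123976 to 23213907 counts per library. Gene models are GENCODE vM21, and promoter windows RefSeq. Genes nested to at least 80% in exons of a gene with a mean of at least 1000 counts served for the strand check. The outer gene also had to have the higher total count. Correlations used log2 CPM (prior count 2) with 100000 permutations. The fit was also run on simulated counts, with results not reported here.

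The members and lists were chosen with earlier results of these data known. Named were all members, Hacl1, Esr1, the other biotin-dependent carboxylases, the gene next after Btd by p, the 5 genes most correlated with Btd, and from other lists at most the 2 with the highest level. Fam84b is that next gene. Atraid and Gm49387 were named as overlapping genes, and Myh4, Pvalb and Actn3 as markers at 0, all chosen after their values were seen. Alternatives were DESeq2 1.42.0, limma-voom (limma 3.58.1), RLE factors, library size alone, no filter, 1 CPM in 4 libraries, the compared groups alone, a robust fit, an adjusted p of 0.1, each library left out, libraries rich in muscle transcripts left out, and Btd summed with Hacl1. The 8 immature and the 8 mature libraries alone, and leaving out mature LERKO 4 as well as the muscle-rich libraries, were added after seeing the data.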

Additional observations from a re-analysis of the deposited data

Results flagged for a closer look

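Among 32 combinations of gene and group (7 members and Hacl1 in 4 groups of 4), 3 held a library whose gap to the nearest other library exceeded the 95% critical value of Dixon's test. Chance gives about 1 in 20. Pcca stood at 72.1 CPM in immature control 3, the highest of its group. Mccc1 stood at 64.9 CPM in the same library, also the highest. Mccc1 stood at 41.3 CPM in mature LERKO 4, the lowest of its group and the library with the highest sum of acute phase genes.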

How the results depend on the processing

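Of 732 log2 fold changes of the members recomputed under alternatives, 731 moved by less than their spread or stayed on their side of the threshold, and the mature value of Btd moved to 0.64 when its counts were summed with those of Hacl1. Of the 28 member fold changes, 18 had 1 sign under every alternative. The mature Btd value was lowest, at 0.37, with library size alone, and ran from 0.40 to 0.49 with 1 library left out. The 0.64 is a value of the summed counts, in which Hacl1 held 313 to 536% of the count of Btd. The number of genes passing in the whole table depended on the tool. DESeq2 called 14 genes in mature LERKO, 10 in immature LERKO, 72 between stages in controls and 5 between stages in LERKO, where edgeR called 1, 1, 0 and 0. With the compared groups alone 6 passed between stages in controls. With 1 library left out the counts ran from 1 to 2 in mature LERKO (2 without mature LERKO 1), 1 to 1 in immature LERKO, 0 to 1 in controls (1 without mature LERKO 4) and 0 to 1 between stages in LERKO (1 without mature LERKO 1). The cause was not tested. The r of Btd with Hacl1 was 0.43 in the 8 immature libraries, that of Mccc1 with Mccc2 was 0.30 in the 8 mature libraries, and that of Pcca with Pccb was 0.50 with library size alone. No paired analysis was possible because the labels carry no replicate numbers that groups share. Hlcs and Slc5a6 had the fewest counts of the members, 4783 and 4686 over the 16 libraries. The part of depth in their spread was not tested.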
